A study of Mus musculus with 12 samples.

Results

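Smooth muscle contractile genes were followed in a mouse pancreatic stellate cell line after exposure to medium from gemcitabine-treated tumour cells, and in the tumour line after exposure to medium from such stellate cells. The set was a fixed list of 10 genes named for their place in the contractile apparatus of smooth muscle and myofibroblasts: the actins Acta2 and Actg2, the actin-bundling proteins Tagln and Tagln2, the actin-binding regulators Cnn1 and Cald1, the myosin light chain Myl9, the tropomyosins Tpm1 and Tpm2, and the leiomodin Lmod1. The list was chosen with earlier results of these data known. Its members were 10 of the 17335 genes with a row in either of the deposited count tables. All 10 had a row in the stellate table, and 6 had a row in the tumour table.

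Pancreatic stellate cells are fibroblast-like cells of the organ's stroma that turn into contractile myofibroblasts when activated, and alpha smooth muscle actin, the product of Acta2, is the usual marker of that state. Many contractile genes are switched on by serum response factor (SRF), which binds a DNA element called the CArG box. Its coactivators, the myocardin-related transcription factors (MRTF), are held back by monomeric actin and released when actin assembles into filaments, and TGF-beta is a classical inducer of the same genes in fibroblasts.

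The 12 RNA-seq libraries came from the mouse lines PSC4 (pancreatic stellate cells) and KPC4 (pancreatic adenocarcinoma). For Control-SU and Gem-SU, KPC4 donor cells received vehicle or 10 µM gemcitabine, a nucleoside analogue used in chemotherapy, for 6 h and were washed before conditioning starvation medium for 14 h. PSC4 cells then spent 24 h in one or the other. For Control-PSC-SU and Gem-PSC-SU, PSC4 cells spent 6 h in Control-SU or Gem-SU, were washed, and conditioned fresh starvation medium over 18 h, in which KPC4 cells were kept for 24 h. Each of the 4 groups had 3 libraries, labelled as biological replicates. All recipient cells were therefore in starvation medium conditioned by other cells, and no group was kept in unconditioned medium. Each cell type was represented by a single established line, and drug carried over in Gem-SU cannot be told apart from factors released by the donor cells.

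Library totals ranged from 26354328 to 38138356 counts. Levels are given as CPM, the count scaled to the library's total after TMM correction for composition. A gene is said to have risen or fallen when edgeR's quasi-likelihood test gave an adjusted p under 0.05, by the method of Benjamini and Hochberg over all genes tested. Fibroblast and stellate cell markers summed to between 8957 and 9603 CPM in PSC4 with Control-SU, while 10 epithelial markers, of which 5 had a row in the PSC4 table, summed to between 3.54 and 6.06 CPM. The same epithelial list summed to between 5998 and 7436 CPM in KPC4 with Control-PSC-SU. The fibroblast list, of which 8 of 14 genes had a row there, summed to between 2921 and 3385 CPM in those libraries. Of its 8 genes tested between the control groups, 6 were higher in PSC4 and 2 lower. Vim averaged 1672 CPM in PSC4 controls and 2615 CPM in KPC4 controls, on a scale common to both lines. In bulk RNA, a change in the share of cells that carry a transcript and a change in its amount per cell cannot be told apart.

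The contractile genes of PSC4 had a wide range of basal levels. Divided by transcript length (the median length of the gene's protein-coding transcripts), the control level was 503 ± 62.9 CPM per kb (SD, n = 3) for Tpm1, 173 ± 21.7 for Cald1, 96.4 ± 8.66 for Tagln2 and 61.2 ± 6.68 for Tpm2. These 4 genes also have products in non-muscle cells, and gene-level counts do not separate their muscle from their non-muscle isoforms. The genes used as markers of smooth muscle were much lower per length, at 7.70 ± 1.35 CPM per kb for Acta2, 5.64 ± 1.86 for Myl9, 1.91 ± 0.246 for Tagln, 0.428 ± 0.270 for Cnn1, 0.0394 ± 0.0372 for Lmod1 and 0.0148 ± 0.0257 for Actg2. In this order, the spreads of Acta2 and Myl9 overlapped, as did those of Lmod1 and Actg2. Myh11, the smooth muscle myosin heavy chain, averaged 0.511 CPM in the same libraries, and Des, the muscle intermediate filament desmin, 2.83 CPM. Both were thus low in this line.

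The promoters of 8 of the 10 genes, all but Tagln and Actg2, were found in a RefSeq-based table (build GRCm38.p6), with 250 bases before and 50 after the annotated start. 4 are printed over the 250 bases before the start, because their genes include the marker Acta2, the risen genes Myl9 and Tagln2 and, for contrast, Cnn1, which did not pass the test. Capitals mark a CArG box or the same box with 1 G or C among its inner bases, on either strand.
Acta2, chr19:34255374-34255623, minus strand: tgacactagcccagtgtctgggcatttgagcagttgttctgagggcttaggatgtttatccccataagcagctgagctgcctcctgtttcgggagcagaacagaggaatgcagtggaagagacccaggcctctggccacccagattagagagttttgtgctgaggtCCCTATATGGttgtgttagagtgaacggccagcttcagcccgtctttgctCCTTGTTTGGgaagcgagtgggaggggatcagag
Myl9, chr2:156775214-156775463, plus strand: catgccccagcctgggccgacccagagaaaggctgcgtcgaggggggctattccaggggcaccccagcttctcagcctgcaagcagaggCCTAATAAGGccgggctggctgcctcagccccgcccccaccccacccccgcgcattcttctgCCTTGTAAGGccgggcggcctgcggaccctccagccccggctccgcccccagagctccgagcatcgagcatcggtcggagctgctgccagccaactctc
Tagln2, chr1:172499996-172500245, plus strand: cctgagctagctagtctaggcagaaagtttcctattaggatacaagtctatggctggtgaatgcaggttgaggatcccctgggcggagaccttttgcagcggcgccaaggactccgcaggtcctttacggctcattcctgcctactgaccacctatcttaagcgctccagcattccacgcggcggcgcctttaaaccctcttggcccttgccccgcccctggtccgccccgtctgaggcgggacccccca
Cnn1, chr9:22099003-22099252, plus strand: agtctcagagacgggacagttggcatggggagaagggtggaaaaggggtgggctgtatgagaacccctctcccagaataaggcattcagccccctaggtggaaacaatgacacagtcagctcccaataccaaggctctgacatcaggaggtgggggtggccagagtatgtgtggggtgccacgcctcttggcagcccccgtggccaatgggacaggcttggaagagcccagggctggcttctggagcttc

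A strict CArG box was found in Myl9 alone among these 8 genes, with its first base at -161 from the start, and in 1.63% of all 32851 promoters of this length. Allowing 1 inner G or C, the Acta2 promoter held 2 boxes, at -84 and -34, and the Myl9 promoter a second box at -99, with 9.98% of all promoters holding such a box. The relaxed form was searched after the Acta2 sequence had been seen. The letters GGAATG, an element that binds TEAD factors, occurred on either strand in 14.7% of all promoters and in those of Acta2, Tpm1, Lmod1, Tagln2 and the first of 2 Cald1 promoters. The second Cald1 promoter held TGANTCA, the AP-1 element, as did 7.81% of all promoters. These matches describe letters and were not tested for binding.

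The first comparison asked how PSC4 cells differ after Gem-SU and after Control-SU. Of the 10 contractile genes, all of which passed the low-count filter, 4 rose with Gem-SU, namely Tagln, Actg2, Myl9 and Tagln2, and none fell. Actg2 and Lmod1, with at most 2 and 9 counts in a control library, passed that filter through the Gem-SU libraries alone. For them the filter itself favoured a higher level with Gem-SU, and both enter the counts and the median given here. Among all 13347 genes tested, 46.3% were called, 24.3% as higher and 22.0% as lower, so that 4 of 10 genes called was not a larger share than that of the transcriptome as a whole. The median log2 fold change of the 10 genes was 0.67, beside -0.0032 for all genes tested. It lies between the values of Cnn1 (0.55) and Acta2 (0.78), neither of which passed in edgeR's test. The list was chosen with earlier results of these data known, so its median is a description only. Of the 10 genes, 6 had an unadjusted p under 0.05, as did 53.9% of all genes. DESeq2 called 5 as higher, the same 4 and Acta2, and 0 as lower, while it called 43.7% of the 15708 genes it adjusted, 22.5% as higher and 21.2% as lower. For 5 genes, the 4 risen ones and Lmod1, all Gem-SU libraries lay above all Control-SU libraries, and for none did they lie below. Such separation held for 56.4% of all genes, with Gem-SU higher for 29.3% and lower for 27.1%. The count of 4 rests on borderline members: it was 2 without Control-SU replicate 3 and 1 (Tagln) in a single fit of both lines, which covers the 6 genes present in both tables.

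**Figure D1:**
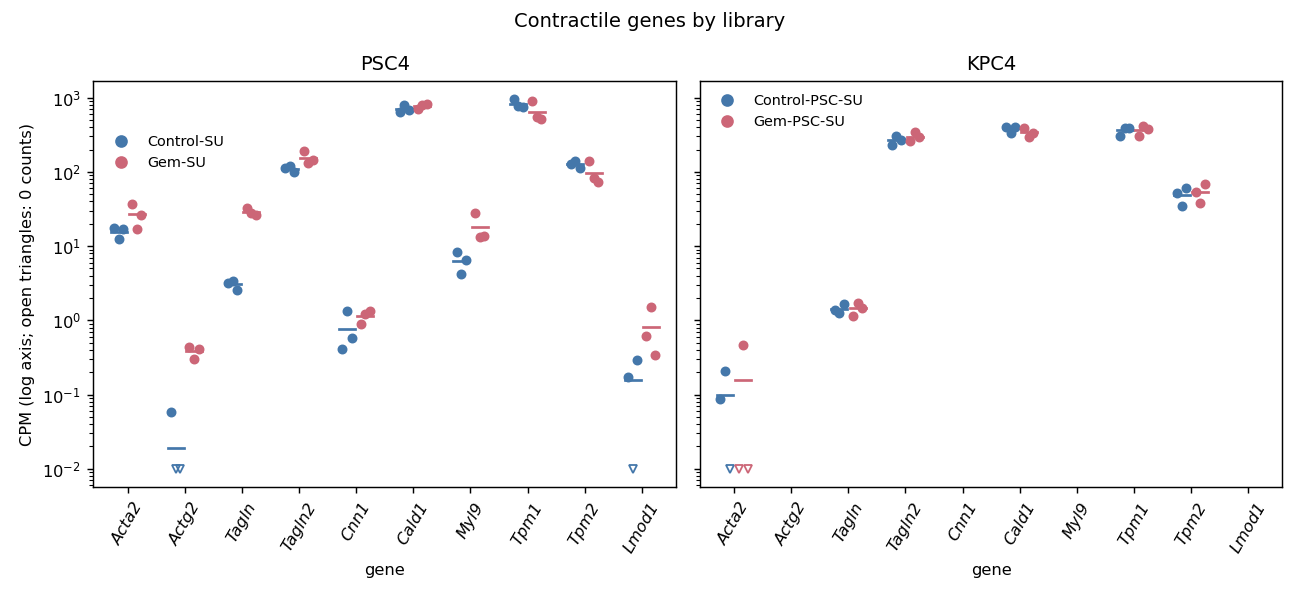
CPM of each contractile gene in each library, on a log axis, for PSC4 (left) and KPC4 (right). Points are libraries, bars are group means over 3 libraries, and open triangles mark libraries with 0 counts. In PSC4 the Tagln libraries with Gem-SU (26.5 to 32.7 CPM) lie far above those with Control-SU (2.60 to 3.34 CPM), while in KPC4 they overlap. Genes without points in the KPC4 panel were not analysed there.

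Tagln encodes transgelin (SM22-alpha), an actin-bundling protein and an early marker of smooth muscle differentiation. Tagln (ENSMUSG00000032085) was at 3.19, 3.34 and 2.60 CPM in the 3 Control-SU libraries and at 32.7, 27.5 and 26.5 CPM in the 3 Gem-SU libraries. The groups were far apart and each was tight. It rose 9.48-fold, by 3.25 on the log2 scale (SE 0.20, edgeR adjusted p = 3.24e-05), and leaving out any single library gave values between 3.10 and 3.31. Among the contractile genes it had the largest change after Actg2, whose fitted value rests on a few counts. Its relative Tagln2 (ENSMUSG00000026547), a transgelin of many non-muscle cells, was at 113, 120 and 100.1 CPM with Control-SU and at 193, 131 and 144 CPM with Gem-SU. The Gem-SU libraries were all higher, replicate 1 most of all, but the gap between the groups was small. Tagln2 rose 1.40-fold (log2 0.49, SE 0.18, edgeR adjusted p = 0.0496). That call did not outlast the removal of any single library (adjusted p between 0.0548 and 0.194) and was not made in the authors' deposited table (log2 0.36, adjusted p = 0.183).

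The smooth muscle actins gave a less even picture. Acta2 (ENSMUSG00000035783) was at 17.6, 12.5 and 16.8 CPM with Control-SU and at 37.1, 16.9 and 26.5 CPM with Gem-SU. Gem-SU replicates 1 and 3 lay above all controls, and replicate 2 lay among them, so that the groups overlapped. The log2 fold change of Acta2 was 0.78 (SE 0.29, 95% interval 0.12 to 1.43) with an edgeR adjusted p of 0.0538, just above the threshold. The call was made by DESeq2 (adjusted p = 0.0255). In edgeR it was made without Gem-SU replicate 2 (1.03, adjusted p = 0.0202) and with genes required to have at least 10 counts in every library (adjusted p = 0.0467). It was not made in the authors' deposited table (0.78, adjusted p = 0.0532). Actg2 (ENSMUSG00000059430), the gamma actin of visceral smooth muscle, had 2, 0 and 0 counts with Control-SU and 17, 10 and 12 counts with Gem-SU. All control libraries were at or under the counting floor of 3 counts, and every Gem-SU library was above it. The Gem-SU mean of Actg2 was 4.12-fold above a floor of 3 counts in each control library, without allowance for the spread between libraries. The fitted log2 fold change of Actg2 had a 95% interval of 1.70 to 6.30 (edgeR adjusted p = 0.0121), at a level that stayed under 1 CPM. Without Control-SU replicate 3 its adjusted p was 0.0517, and the gene had passed the low-count filter through the Gem-SU libraries alone.

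Myl9 encodes the regulatory light chain of smooth muscle myosin, whose phosphorylation starts contraction. Myl9 (ENSMUSG00000067818) was at 8.43, 4.23 and 6.43 CPM with Control-SU and at 27.9, 13.4 and 13.6 CPM with Gem-SU. Every Gem-SU library was above every control, and Gem-SU replicate 1 stood well above the other Gem-SU libraries. It rose 2.87-fold (log2 1.52, SE 0.36, edgeR adjusted p = 0.00916), and it passed without any single library, with values from 1.09 to 1.78. The authors' deposited table gave 1.59 (adjusted p = 0.00452).

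The regulators of the thin filament did not pass the test. Cnn1 (ENSMUSG00000001349), basic calponin, which restrains actomyosin ATPase, was at 0.406, 1.33 and 0.585 CPM with Control-SU and at 0.883, 1.20 and 1.32 CPM with Gem-SU. Control-SU replicate 2 was higher than every Gem-SU library. Its log2 fold change was 0.55 (95% interval -0.67 to 1.78, edgeR adjusted p = 0.427). Cald1 (ENSMUSG00000029761), caldesmon, was at 637, 806 and 674 CPM with Control-SU and at 715, 806 and 828 CPM with Gem-SU. The groups overlapped, and the log2 fold change was 0.15 (95% interval -0.24 to 0.54, edgeR adjusted p = 0.498). Lmod1 (ENSMUSG00000048096), which nucleates actin filaments in smooth muscle, had 6, 0 and 9 counts with Control-SU and 24, 50 and 10 counts with Gem-SU. The groups did not overlap, but Gem-SU replicate 3 lay close to Control-SU replicate 3. Lmod1 too had passed the low-count filter through the Gem-SU libraries alone. Its log2 fold change of 2.38 had an SE of 0.96 and an edgeR adjusted p of 0.0710, while the authors' deposited table gave 2.37 with an adjusted p of 0.0495.

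Tropomyosins, the coiled-coil proteins that lie along actin filaments, had negative fold changes without passing the test. Tpm1 (ENSMUSG00000032366) was at 945, 773 and 760 CPM with Control-SU and at 889, 549 and 511 CPM with Gem-SU. Tpm2 (ENSMUSG00000028464) was at 129, 142 and 114 CPM with Control-SU and at 138, 82.6 and 73.2 CPM with Gem-SU. In both genes Gem-SU replicate 1 lay among the controls and the other Gem-SU replicates lay below all of them. The log2 fold change was -0.35 for Tpm1 (95% interval -0.89 to 0.20, edgeR adjusted p = 0.266) and -0.39 for Tpm2 (95% interval -0.93 to 0.15, edgeR adjusted p = 0.211). Without Gem-SU replicate 1 both passed as lower, at -0.64 (adjusted p = 0.0147) and -0.72 (adjusted p = 0.00483). This library was also the highest for Acta2, Tagln, Myl9, Tagln2 and Actg2.

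**Figure D2:**
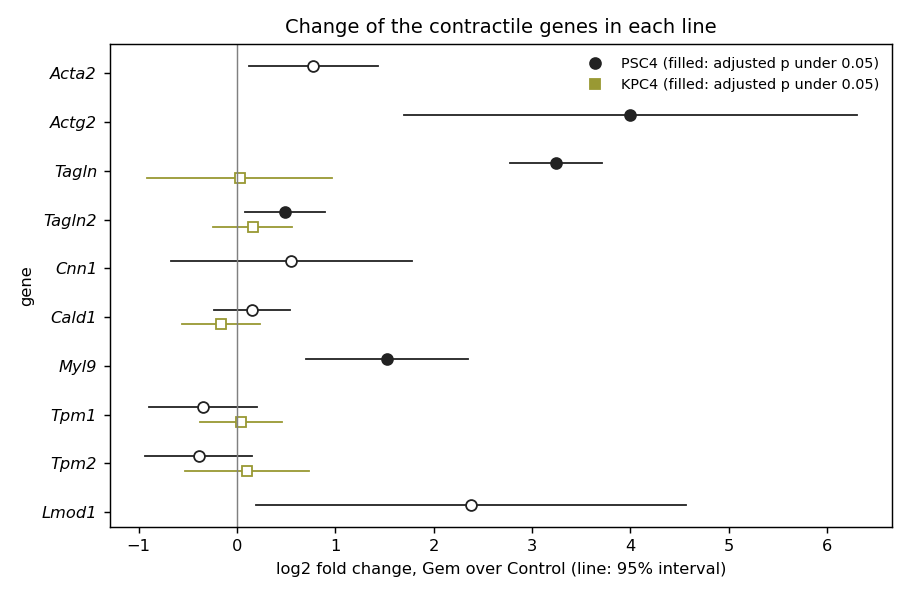
Log2 fold change of each contractile gene, Gem over Control, with its 95% interval, in PSC4 (circles) and KPC4 (squares). Filled symbols passed an adjusted p of 0.05. In PSC4, Tagln (3.25), Actg2, Myl9 (1.52) and Tagln2 (0.49) are filled, and in KPC4 none is.

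The make-up of the contractile protein families was compared within PSC4 as shares of the family's summed CPM per kb, which describe relative and not absolute amounts. Acta2 made up 0.336% ± 0.0446 (SD, n = 3) of actin transcripts with Control-SU and 1.06% ± 0.138 with Gem-SU, and the groups did not overlap. The actin sum itself lay between 2142 and 2521 CPM per kb with Control-SU and between 918 and 1646 with Gem-SU. The share of Acta2 thus differed together with the total to which it is related. Tagln made up 1.94% ± 0.0846 of the sum of Tagln and Tagln2 with Control-SU and 11.9% ± 1.15 with Gem-SU. Myl9 made up 2.01% ± 0.505 of the regulatory light chains with Control-SU and 7.44% ± 0.202 with Gem-SU, while Myl12b, a non-muscle light chain, went from 10.6% ± 2.48 to 6.20% ± 0.966. These groups did not overlap either. Such separation was not particular to the muscle genes. Actg1, a non-muscle actin, went from 37.7% ± 1.71 to 43.8% ± 0.845 of actin transcripts without overlap, while its log2 fold change was -0.69. Without overlap, the shares of Tpm4 and of the non-muscle heavy chain Myh9 were also higher with Gem-SU, and those of Actb and Myh10 lower. The Cnn1 share among calponins was 0.0989% ± 0.0701 with Control-SU and 0.193% ± 0.0680 with Gem-SU, with overlapping groups, and Tpm1 made up 45.4% ± 1.92 and 43.1% ± 2.18 of the tropomyosins. The actins, and Myl12a with Myl12b, have near-identical coding sequences, so that the split of reads between them is uncertain.

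**Figure D3:**
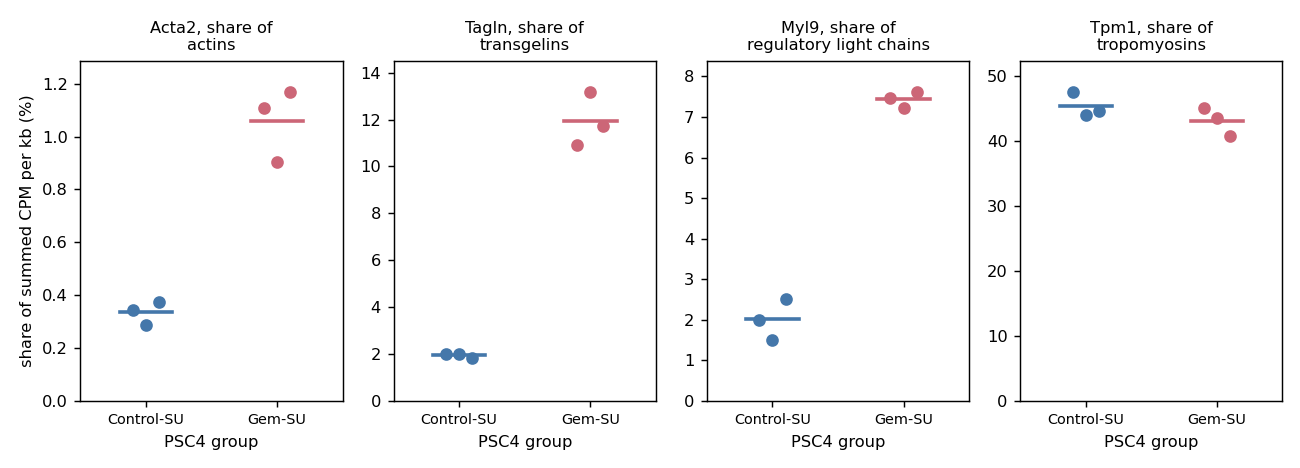
Share of 4 contractile genes in the summed CPM per kb of their family, in percent, in the PSC4 libraries with Control-SU and Gem-SU; points are libraries and bars are means over 3. The shares of Acta2 (0.336% and 1.06%), Tagln (1.94% and 11.9%) and Myl9 (2.01% and 7.44%) do not overlap between the groups, and that of Tpm1 does.

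The other genes of the contractile apparatus were called no more often than the 46.3% of all genes called in PSC4. Of 13 tested partners of these genes, from a list of 17, 4 rose and none fell, with a median log2 fold change of 0.13. They included Smtn, the actin-binding protein smoothelin, from 23.8 ± 3.55 to 138 ± 10.7 CPM (SD, n = 3; log2 2.54, SE 0.16, edgeR adjusted p = 3.24e-05), Pdlim7, a LIM-domain protein of the actin cytoskeleton (1.66), and Synpo2, an actin-binding protein of muscle (2.73, from 0.921 ± 0.525 to 6.11 ± 2.18 CPM). Myh11 had a log2 fold change of -0.15 and Des of 0.25, neither past the test. Of 14 tested non-muscle relatives, none rose and 3 fell, with a median of -0.34. These were Actb, cytoplasmic beta actin, from 2239 ± 180 to 1067 ± 317 CPM (log2 -1.07, SE 0.24, edgeR adjusted p = 0.00704), Actg1, cytoplasmic gamma actin (-0.69, adjusted p = 0.0490), and Myl12b (-1.12, adjusted p = 0.0442). DESeq2 also called 1 relative higher, the non-muscle myosin heavy chain Myh9.

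The genes that assemble and control stress fibres moved in both directions. So did all genes tested in PSC4, of which 24.3% were called higher and 22.0% lower, together 46.3%. The shares called in the lists of this paragraph were close to that total. Of 16 tested stress fibre and focal adhesion genes, 4 rose and 4 fell, with a median log2 fold change of 0.23. Pdlim5 (1.01), the crosslinker Actn1 (0.63) and the actin scaffold Palld (0.55) were among the risen, and Parva (-1.10), Tns1 (-1.05) and Lima1 (-0.68), all linked to adhesions or actin bundles, among the fallen. Of 13 tested genes of SRF and MRTF control, 4 rose and 2 fell, with a median of -0.0011. Rhob, a small GTPase, rose from 45.4 ± 16.1 to 184 ± 11.1 CPM (log2 2.01), the formin Diaph1 rose by 1.05 and the coactivator Mrtfa by 0.70. Elk3, an ETS factor that binds DNA together with SRF, fell by 1.57 and Rhoa, the GTPase upstream of stress fibres, by 0.74. Srf itself had a log2 fold change of 0.71 (95% interval 0.09 to 1.32) and did not pass in edgeR's test (adjusted p = 0.0589), but DESeq2 called it higher, among 5 higher and 3 lower genes of this list. Myocd, the muscle-specific coactivator myocardin, had at most 8 counts in any PSC4 library.

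TGF-beta signalling genes were also split, with 3 of 14 tested rising and 4 falling and a median of -0.18. All genes tested in PSC4 were split in a similar way, with 24.3% called higher and 22.0% lower. The feedback inhibitor Smad7 rose from 6.54 ± 1.82 to 43.1 ± 6.29 CPM (log2 2.72, SE 0.25), the co-repressor Skil rose by 1.15 and the type I receptor Tgfbr1 by 0.51. The type III receptor Tgfbr3 fell by 1.83, the type II receptor Tgfbr2 by 1.03 and the inhibitory Smad6 by 0.95. The ligand Tgfb1 had a log2 fold change of -0.20 and did not pass. Some of the named calls rest on few libraries. When each of the 6 libraries was left out in turn, Actg1 passed in 1 of 6 fits (highest adjusted p 0.186), Lima1 in 3 (0.0888), and Myl12b, Palld, Tgfbr1 and Smad6 in 2 each (0.144, 0.149, 0.115 and 0.103).

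**Figure D4:**
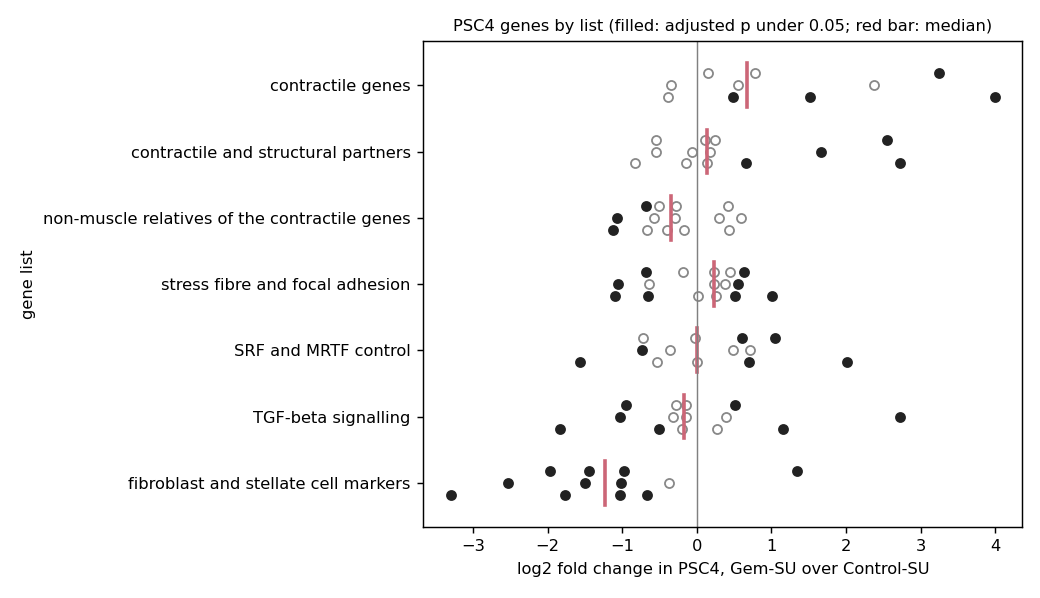
Log2 fold change in PSC4, Gem-SU over Control-SU, of the tested genes of 7 lists. Each point is a gene, filled where its adjusted p was under 0.05, and the red bar is the list's median. The contractile genes have 4 filled points, all to the right of 0, and the fibroblast and stellate cell markers have 10 of 12 genes filled on the left.

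Markers of cell state and of other cells moved beside these genes, where 24.3% of all genes were called higher and 22.0% lower. Of 12 tested fibroblast and stellate cell markers, 10 fell and 1 rose, with a median log2 fold change of -1.24, and their summed level lay between 3177 and 4491 CPM with Gem-SU. Pdgfra, a growth factor receptor of fibroblasts, fell from 1257 ± 138 to 127 ± 36.2 CPM (log2 -3.30, SE 0.25, edgeR adjusted p = 5.98e-05), the collagen chain Col1a2 fell by 1.77 and the receptor Pdgfrb by 1.45, while Nes, an intermediate filament gene, rose by 1.34. Of 4 tested pericyte markers, 2 rose, Mcam (1.75) and Notch3 (0.71, which passed in 3 of the 6 fits without 1 library), and the summed level of the 6 went from between 122 and 170 to between 192 and 332 CPM, although Rgs5, a defining pericyte gene, averaged 0.401 and 0.177 CPM. Of 3 tested epithelial markers 1 rose, Krt19 (1.38), with a summed level of 10.2 to 14.8 CPM under Gem-SU. Krt8, a keratin at 2834 CPM in KPC4 controls, averaged 0.517 CPM in PSC4 with Control-SU and 0.655 with Gem-SU. Of 3 tested endothelial and leukocyte markers 1 rose, Kdr (2.58), with a summed level of 4.51 to 6.20 CPM with Control-SU and 7.22 to 9.08 with Gem-SU, and of 2 tested striated muscle markers none passed in edgeR's test, 1 had an unadjusted p under 0.05, and DESeq2 called 1 higher and 1 lower. The part of these markers in the contractile changes was not tested.

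The second comparison asked how KPC4 cells differ after Gem-PSC-SU and after Control-PSC-SU. Of the 10 contractile genes, Cnn1, Myl9, Actg2 and Lmod1 were not analysed in KPC4, Acta2 had a row but was too low to test, and 5 were tested. None of the 5 passed in edgeR's test, none had an unadjusted p under 0.05, none was called by DESeq2, and their median log2 fold change was 0.04. Among all 13236 genes tested 0% were called in either direction, with 2251 genes (17.0%) at an unadjusted p under 0.05, and DESeq2 called 822 (5.95% of those it adjusted). With the replicate number as a block, 8.85% of all genes were called, 6.07% as higher and 2.78% as lower, and still 0 contractile genes. No contractile gene had groups that did not overlap, which 22.8% of all genes had, 11.8% with Gem-PSC-SU higher and 11.0% lower.

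Acta2 was close to absent from KPC4, with 3, 7 and 0 counts with Control-PSC-SU and 0, 15 and 0 counts with Gem-PSC-SU. Tagln was at 1.38, 1.24 and 1.64 CPM with Control-PSC-SU and at 1.14, 1.74 and 1.47 CPM with Gem-PSC-SU. The groups were interleaved, and the log2 fold change was 0.03 (95% interval -0.92 to 0.97, edgeR adjusted p = 0.982). The authors' deposited table gave -0.64 for Tagln in KPC4, with an adjusted p of 0.596, so both sources left the gene uncalled but gave different values. Tagln2, at 229, 302 and 273 CPM with Control-PSC-SU and 263, 340 and 294 CPM with Gem-PSC-SU, had a log2 fold change of 0.16 (95% interval -0.25 to 0.56). The groups overlapped.

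The groups also overlapped for the remaining KPC4 genes. Tpm1 was at 308, 385 and 393 CPM with Control-PSC-SU and at 309, 422 and 383 CPM with Gem-PSC-SU (log2 0.04, 95% interval -0.38 to 0.45). Tpm2 was at 52.6, 34.8 and 60.6 CPM and at 53.9, 37.6 and 67.6 CPM (log2 0.11, 95% interval -0.53 to 0.74). Replicate 1 had the lowest Tpm1 and replicate 2 the lowest Tpm2 in either group. Cald1 was at 409, 338 and 407 CPM with Control-PSC-SU and at 395, 297 and 339 CPM with Gem-PSC-SU (log2 -0.16, 95% interval -0.56 to 0.23). Its lowest library was replicate 2 in both groups. Between same-numbered libraries, Tpm2 and Tagln2 were higher with Gem-PSC-SU in 3 of 3 pairs and Cald1 was lower in 3 of 3, while Tpm1 was higher in 2 and Tagln in 1. The share of all genes with the same direction in every pair was not counted, so these pair counts are a description only. With the replicate number as a block the adjusted p was 0.637 for Tpm2, 0.382 for Tagln2 and 0.374 for Cald1 in edgeR's test.

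Of the other lists, none had a gene called in KPC4 by edgeR without the block. At an unadjusted p under 0.05 there were 3 of 8 tested partners, 2 of 13 non-muscle relatives and 1 of 16 stress fibre genes. So were 2 of 13 genes of SRF and MRTF control, 2 of 14 TGF-beta genes and no gene of the 5 marker lists. The share over all genes tested was 17.0%. With the block 8.85% of all genes were called, and by DESeq2 5.95%. With the block, Csrp1, a LIM-domain protein of smooth muscle, rose by 1.08 and Smtn by 1.22 on the log2 scale (edgeR adjusted p = 0.0112 and 0.0172). Actg1 fell by 0.76 and Actb by 0.72 (adjusted p = 0.0173 and 0.0238), the coactivator Mrtfb fell by 0.66 (adjusted p = 0.0385) and Smad7 rose by 0.84 (adjusted p = 0.0183). DESeq2 without the block called these genes except Mrtfb, and no others of the lists.

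The lines were then compared in 1 fit of all 12 libraries. Of the 6 contractile genes with a row in both tables, only Tagln passed the test of a different response in PSC4 and KPC4. Its log2 change was 3.17 larger in PSC4 (SE 0.34, edgeR adjusted p = 3.14e-04). A gene that did not pass may still differ. Among all 13632 genes tested, 9.85% were called, 4.75% as higher and 5.10% as lower in PSC4 relative to KPC4, and with plain library totals as the scale the split was 786 higher and 529 lower instead of 648 and 695. The difference of responses was -0.43 for Tpm1 (95% interval -1.10 to 0.23), -0.55 for Tpm2 (-1.40 to 0.30), 0.26 for Cald1 (-0.26 to 0.78) and 0.28 for Tagln2 (-0.27 to 0.83), and none of these passed. For Acta2 it could not be estimated, with an interval from -10.70 to 10.76, since 3 KPC4 libraries had 0 counts. The supernatant each line received differed in origin, so line and supernatant cannot be told apart in these differences.

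In the control groups, all 6 genes differed between the lines, 5 higher and 1 lower in PSC4, where 42.9% of all genes were called, 22.3% as higher and 20.6% as lower. On a CPM scale common to all 12 libraries, Acta2 averaged 15.7 ± 2.85 in PSC4 and 0.0997 ± 0.106 in KPC4 (log2 7.22, SE 0.86, edgeR adjusted p = 1.20e-05), a fold change that depends on the few KPC4 counts. Tpm2 was 2.59-fold, Tpm1 2.27-fold, Tagln 2.13-fold and Cald1 1.82-fold higher in PSC4. Tagln2 was 2.43-fold lower there, at 111 ± 9.36 CPM against 271 ± 38.4 CPM (log2 -1.28, SE 0.18, edgeR adjusted p = 6.92e-05). Line, supernatant and experiment cannot be told apart in this comparison either.

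Across the 4 groups on that scale, Tagln ran from 28.1 ± 3.19 CPM in PSC4 with Gem-SU, through 3.05 ± 0.379 with Control-SU, to 1.46 ± 0.276 and 1.44 ± 0.190 in KPC4 with Gem-PSC-SU and Control-PSC-SU, the last 2 within each other's spread. For Acta2 the order was 26.1 ± 9.73, 15.7 ± 2.85, 0.154 ± 0.266 and 0.0997 ± 0.106 CPM, with overlapping libraries between neighbours within each line. The 5 genes whose pattern over the 12 libraries was most like that of Acta2 were Eno2, Jam3, Irx2, Ahrr and Ror2. Their root mean square differences from it in centred log2 CPM were 0.385, 0.399, 0.413, 0.417 and 0.452, among 11850 genes compared. All were high in PSC4 and low in KPC4. Within PSC4 Eno2 rose by 0.92 and Irx2 by 0.59 with Gem-SU, while Jam3, Ahrr and Ror2 did not pass. These genes were picked from the same libraries, so their changes are a description only, where 46.3% of all genes were called in PSC4.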

How the data were processed

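Total RNA of 12 cultures (3 libraries in each of 4 groups) was sequenced on an Illumina NovaSeq instrument. For each line the authors deposited 1 table of counts per gene. The submitters' processing notes name FastQC, Trim Galore 0.6.10, cutadapt 5.2, Salmon, R 4.5.1, DESeq2 and the build GRCm39, without their order or settings. The deposited counts are whole numbers, and how estimates were rounded is not given in the sources used here. The PSC4 table has rows with a total of 0, while no KPC4 row sums to less than 11, so low genes were not treated alike. The authors also deposited, per line, a comparison table with log2 fold changes and with p-values and adjusted p-values, used here only as their values. No column of per-sample values was left unused (0 columns).

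Samples were grouped by title. Symbols came from GENCODE M21 (GRCm38), which matched 99.7% of identifiers in each table. As that is another build than the authors', it was used only for symbols and transcript lengths, and coordinates are printed only for the RefSeq promoter sequences, on their own build (GRCm38.p6). The 2 lines were fitted separately, using edgeR 4.0.16 under R 4.3.3 (filterByExpr, TMM, robust quasi-likelihood test, Benjamini-Hochberg over all genes tested, threshold 0.05), and differences between lines in 1 fit of 12 libraries. The 95% intervals of fold changes use the t distribution with the fit's degrees of freedom. A floor of 3 counts covers counting error only. Genes overlapping others or with near-identical copies are uncertain.

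The members and the 10 other lists were chosen with earlier results of these data known. A gene of the list of contractile partners is not reported here and was taken out of it. All members are named, and from each other list up to 3 higher and 3 lower called genes with the smallest p. In KPC4 the same was done with the replicate block. Genes like Acta2 were the 5 closest by root mean square difference in centred log2 CPM (pseudocount 0.5, mean of at least 50 counts). Samples share replicate numbers. In KPC4, the correlation of same-numbered libraries after removing group means was 0.351, 0.436 and 0.211, so those numbers were taken to pair the libraries, from the values alone. All replicate pairs differed beyond counting noise (chi-square per degree of freedom at least 30.4). P-values measure the spread between replicate cultures of 1 line.

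Counts were simulated with 200 genes changed by 2-fold or 4-fold. On these, edgeR recovered 84.8% of 4-fold and 46.2% of 2-fold changes in PSC4 (13137 genes). In KPC4 (13015 genes) it recovered 87.0% and 34.3%. For the difference between lines it recovered 67.7% and 4.90% (13458 genes). Of its calls 7.75%, 10.2% and 2.78%, in that order, were genes simulated without a change, against a nominal 5%. In the PSC4 data 46.3% of genes were called, a far larger share than was changed in the simulation. These rates depend on that share and may differ in the data. For the difference between lines, each simulated gene also had the same starting level in both lines. The rates therefore do not cover genes nearly absent from 1 line, such as Acta2 (15.7 CPM in PSC4 controls, 0.0997 CPM in KPC4 controls). Alternatives were DESeq2 size factors, plain totals, dropping the low-count filter, a minimum of 10 counts per library, the block, no robust estimation, DESeq2 1.42.0, 1 fit of both lines and leaving out each library. Family shares without length scaling were added after seeing the data.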

Additional observations from a re-analysis of the deposited data

Results flagged for a closer look

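Among the genes named above, 14 responded differently in the lines by the test of the difference itself (edgeR, 12 libraries, adjusted p under 0.05). Apart from the contractile genes, these had been named for a small p within a line, from the same libraries. That choice favours differing responses, so the number 14 cannot be set against the 9.85% of all genes called. All values are the log2 change in PSC4 minus that in KPC4. Of the contractile genes this was Tagln, at 3.17 (adjusted p = 3.14e-04), which passed without any single library with values from 3.01 to 3.30. Of the contractile partners, Smtn had 1.20. Of the genes of SRF and MRTF control and of stress fibres, Rhob had 2.19, Diaph1 0.87, Pdlim5 0.88 and Elk3 -0.97. Of the TGF-beta genes, Smad7 had 1.83, Tgfbr1 0.92, Tgfbr2 -1.11 and Tgfbr3 -2.52. Of the markers, Pdgfra had -3.83, Col1a2 -2.57, Krt19 1.47 and Nes 0.98. Pdgfra, Tgfbr3 and Col1a2 averaged only 0.505, 0.489 and 0.162 CPM in KPC4 controls. In the 12 fits that each left out 1 library, Diaph1 passed in 6, Nes in 5, and Elk3, Pdlim5, Smtn, Col1a2 and Tgfbr1 in 2 each, while the others passed in all 12. With the replicate number as a block all 14 still passed, and 8 more named genes did: Pdlim7 (1.16), Mrtfa (0.71), Skil (0.70), Lima1 (-0.66), Myl12b (-0.82), Parva (-0.83), Tns1 (-0.96) and Csrp1 (-1.03), where 21.9% of all genes were called instead of 9.85%. Line and supernatant cannot be told apart in these differences.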

How the results depend on the processing

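The number of contractile genes called in PSC4 was 4, between 3 and 6 under other scalings, filters and tests, between 2 and 5 without 1 library, and 1 in a single fit of both lines, which lacks 4 of the 10 genes by construction. It stayed 0 in KPC4, 1 for the difference between lines, and 5 or 6 between the controls, under every alternative run. With the replicate number as a block the PSC4 count was 6, 5 higher and 1 lower: Acta2 (0.72, adjusted p = 0.00567) and Tpm2 (-0.44, adjusted p = 0.0481) passed, where 54.4% of all genes were called, 27.9% higher and 26.6% lower. PSC4 libraries share only a number, with same-number correlations of 0.428, -0.0548 and 0.102, and only replicate 1 correlated best with its own number. The block changed no call on a contractile gene in KPC4. Over all genes, PSC4 calls ranged from 4061 (without Gem-SU replicate 2) to 6826 without 1 library. KPC4 calls were 0, but 1 with plain totals, 1171 with the block, 822 with DESeq2, 610 in 1 fit of both lines, and 0 to 1129 without 1 library (leaving out Gem-PSC-SU replicate 1 gave 1129, and leaving out Control-PSC-SU replicate 2 gave 174). Calls on the difference between lines were 1343, but 2988 with the block, 2145 with DESeq2, and 610 (without Gem-SU replicate 2) to 1993 without 1 library. The sign of the KPC4 change reversed for Tagln with plain totals (-0.00356) and, without 1 library, for Tagln (-0.13 to 0.17), Tpm1 (-0.0696 to 0.15) and Tpm2 (-0.11 to 0.30). The difference between lines reversed for Acta2 (-1.05 to 5.49). None of these values had been called. The cause of these shifts was not tested. Without length scaling, the shares of Acta2, Tagln and Myl9 in their families differed by 0.867, 13.2 and 6.28 percentage points, and by 0.725, 10.0 and 5.43 with it. Depth limits Actg2, Lmod1 and Cnn1 in PSC4, and Acta2 and Tagln in KPC4, each under 2 CPM.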
